A study of Mus musculus with 9 samples.

Results

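The genes described here are 9 receptors that steer lymphocytes through tissue: the chemokine receptors Cxcr4, Cxcr5, Ccr2, Ccr6, Ccr7 and Ccr9, the chemokine-scavenging receptor Ackr2, the oxysterol receptor Gpr183 and the sphingosine-1-phosphate receptor S1pr1. They were chosen by name, with earlier results of these data known. Their probes were found by the gene name, or an older alias, in the array files. This gave 11 of the 41174 probes on the array, 2 each for Cxcr4 and Ccr2 and 1 for each other gene. Ackr2 stands in the files under its older name Ccbp2. The test took probes whose signal was marked well above background on every array of some group. By this filter 8 of the 9 receptor genes were tested among 11901 genes in all, and Cxcr5 was not. A gene with several probes was represented by the brightest.

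All samples came from pro-B cells of C57Bl/6 background that had been transformed with the Abelson murine leukaemia virus (A-MuLV), which blocks B-cell development at an early stage and lets the cells grow without feeder cells. The cells had the genotype Ebf1fl/fl;RERTCre, in which a tamoxifen-inducible Cre deletes the endogenous gene for EBF1, the transcription factor that commits progenitors to B-cell fate. In EBF1ΔC cells the retrovirus pmys-EBF1ΔC-IRES-GFP supplied EBF1 without its C-terminal domain, and in EBF1wt cells pmys-EBF1wt-IRES-GFP supplied the full-length protein. Both received 2 µM 4-hydroxytamoxifen 24 h after transduction, were sorted for GFP 5 days later and were used more than 2 weeks after that. Mock cells, mock-transduced and so without viral EBF1, also received 2 µM 4-hydroxytamoxifen and were harvested 4 days later, ahead of cell death. Each group had 3 arrays, and nothing in the labels says that replicates came from separate cultures, so the p-values may measure technical spread only. EBF1 was thus supplied from a retroviral vector and not from its own promoter, and comparisons with Mock set sorted, long-cultured cells against cells harvested early.

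Chemokine receptors are G-protein-coupled receptors that turn a gradient of a small protein ligand into directed movement, mostly through inhibitory G proteins. In bone marrow, CXCR4 and its ligand CXCL12 hold B-cell progenitors near stromal cells. CXCR5, CCR7 and GPR183 place B cells in follicles, the T-cell zone and the outer follicle, and S1PR1 lets lymphocytes leave tissue for blood and lymph. CCR2 is best known from monocytes, CCR6 from mature B cells and T cells drawn by CCL20, and CCR9 from gut-homing cells and thymocytes drawn by CCL25. ACKR2 binds inflammatory chemokines and removes them without calling on G proteins. B-lineage genes often carry sites for EBF1, E2A and RUNX1 close to their starts.

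Promoter sequences of the receptors with the largest fitted changes in either direction, and of Ccr9, are shown so that their letters can be set beside the values below. They are from RefSeq (GRCm38.p6), run 5′ to 3′ from 250 bases before to 50 bases after the start, and were listed for 6 of the 9 genes (7 promoters, 2 of them of Ccr6). Capitals mark a match, on either strand, to the motifs searched. Gpr183 is at chr14:121965144-121965443, minus strand, Ackr2 at chr9:121898105-121898404, plus strand, Cxcr4 at chr1:128592250-128592549, minus strand, and Ccr9 at chr9:123766961-123767260, plus strand.
Gpr183: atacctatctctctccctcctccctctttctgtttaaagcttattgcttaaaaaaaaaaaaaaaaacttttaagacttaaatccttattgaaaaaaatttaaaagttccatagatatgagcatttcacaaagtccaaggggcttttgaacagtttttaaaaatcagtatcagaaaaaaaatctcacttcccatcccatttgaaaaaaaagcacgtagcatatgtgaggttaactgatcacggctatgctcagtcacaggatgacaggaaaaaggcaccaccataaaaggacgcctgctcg
Ackr2: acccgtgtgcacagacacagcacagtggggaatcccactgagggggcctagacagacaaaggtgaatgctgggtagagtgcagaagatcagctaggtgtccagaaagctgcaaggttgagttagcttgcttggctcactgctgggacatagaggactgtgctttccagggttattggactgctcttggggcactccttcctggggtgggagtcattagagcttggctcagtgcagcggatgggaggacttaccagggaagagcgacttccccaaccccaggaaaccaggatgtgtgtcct
Cxcr4: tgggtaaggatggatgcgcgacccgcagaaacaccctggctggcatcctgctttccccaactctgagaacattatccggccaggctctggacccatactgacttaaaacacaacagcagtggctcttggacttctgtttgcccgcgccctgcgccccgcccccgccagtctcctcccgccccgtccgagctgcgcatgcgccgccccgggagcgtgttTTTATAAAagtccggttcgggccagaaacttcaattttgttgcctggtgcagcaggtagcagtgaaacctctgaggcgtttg
Ccr9: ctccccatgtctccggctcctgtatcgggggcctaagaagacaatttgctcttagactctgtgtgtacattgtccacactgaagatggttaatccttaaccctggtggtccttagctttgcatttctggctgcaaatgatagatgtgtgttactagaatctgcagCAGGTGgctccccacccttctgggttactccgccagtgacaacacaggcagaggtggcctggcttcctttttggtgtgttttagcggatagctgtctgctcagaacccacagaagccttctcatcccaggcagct

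The core of the EBF1 palindrome, CCCNNGGG, is its own reverse complement. It occurs in 13.7% of 32851 promoters of this length and in 0 of the 7 receptor promoters. The E2A motif CAGGTG, present in 20.2% of promoters, was found in 1 of the 7, Ccr9, beginning at position -85, where the start itself is position 1 and there is no position 0. The RUNX motif TGTGGT, present in 16.8%, was found in 1, the first promoter of Ccr6, beginning at position 31. The TATA motif TATAAA, present in 13.6%, was found in 1, Cxcr4, where its forms on both strands overlap and begin at positions -32 and -30. A match describes letters only, and no match says only that the letters are not in this window.

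The array reads each transcript through a 60-base probe. Shown are 1 probe of Cxcr4, the receptor with the highest fitted rise, and the probe of Ccr6, the receptor with the widest spread. Per the files, they lie in mm9 at chr1:130485659-130485718 on the minus strand and at chr17:8449719-8449778 on the plus strand, and neither has a capital because no part is set apart.
Cxcr4 probe: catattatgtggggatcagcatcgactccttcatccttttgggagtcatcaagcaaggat
Ccr6 probe: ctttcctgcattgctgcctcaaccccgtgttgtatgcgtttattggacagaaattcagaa

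Values are log2 intensity relative to the 75th percentile of the same array, so 0 is the brightness of a gene at that percentile. The 75th percentile ran from 384 to 507.7 intensity units. Levels of different probes are not comparable, because probes differ in brightness. The first principal component of all genes held 74.6% of the variance and set the EBF1ΔC and EBF1wt arrays (35.4 to 42.0) apart from the Mock arrays (-79.8 to -73.7). EBF1wt replicate 2 lay at 45.4 on the second component, where the other EBF1wt arrays lay at 13.0 and 15.3, and its weight in limma's estimate of array quality, 0.371, was the lowest of the 9. Mock arrays were hybridised on slides of their own and scanned on another day, so EBF1 supply, time in culture, sorting, slide and scan day cannot be told apart in comparisons with Mock. Of 14 pro-B and B-lineage markers, 13 were well above background on all 3 arrays of every group, Rag2 being the exception. The brighter Ebf1 probe averaged 3.80 in EBF1ΔC cells, 3.06 in EBF1wt cells and 1.45 in Mock cells. The other averaged -6.47 in EBF1ΔC cells, -6.21 in EBF1wt cells and -2.59 in Mock cells. The sources used here do not say whether these probes lie in the deleted part of the gene, so they check nothing about the deletion.

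**Figure D1:**
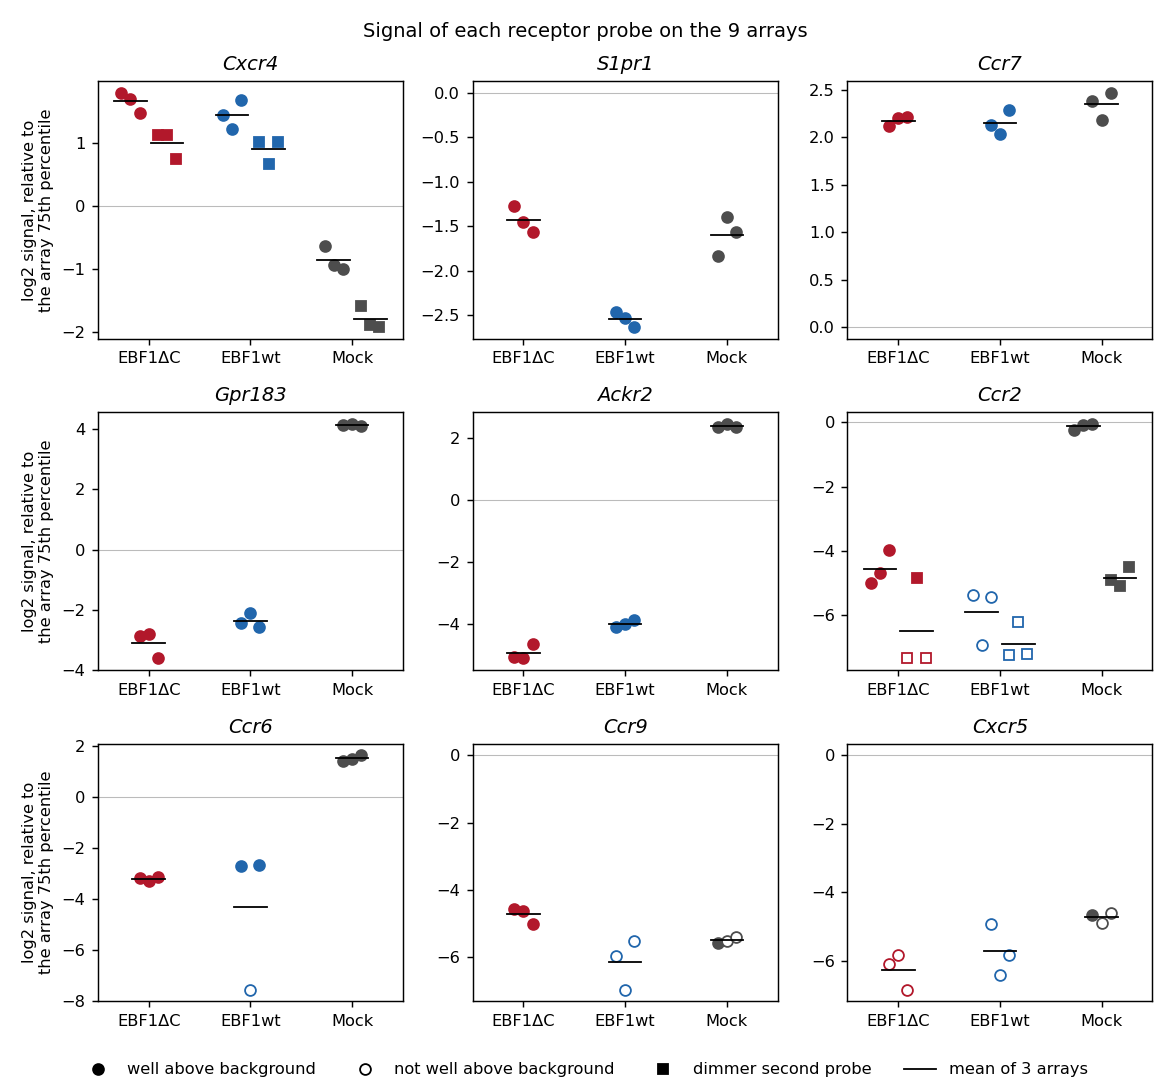
Each point is 1 probe on 1 array, as log2 signal relative to the array's 75th percentile (vertical axis, a scale per panel), with groups along the horizontal axis, a bar at the mean of 3 arrays, open points for spots not well above background and squares for the dimmer second probe of Cxcr4 and Ccr2. Gpr183 and Ackr2 lie far lower on all EBF1ΔC and EBF1wt arrays than on Mock arrays, Cxcr4 lies higher on them, S1pr1 is lowest on EBF1wt arrays, and 1 EBF1wt array of Ccr6 (-7.56) lies apart from the other two.

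In EBF1ΔC and EBF1wt cells, set against Mock cells, Cxcr4 was higher and Gpr183, Ackr2, Ccr2 and Ccr6 were lower. A gene was called changed at a Benjamini-Hochberg adjusted p under 0.05 over all genes, in a limma fit of all 9 arrays, with a change of at least 2-fold. Between EBF1ΔC and Mock, 5 of the 8 receptor genes tested were called (1 higher, 4 lower), where 17.7% of all genes tested were called (6.24% higher, 11.5% lower). Between EBF1wt and Mock the same count was 5 of 8 (1 higher, 4 lower), where the share of all genes was 19.1% (6.63% higher, 12.4% lower). The groups did not overlap for 6 of the 8 genes in each comparison, beside 71.6% of all genes for EBF1ΔC and 72.6% for EBF1wt. The median change of the 8 receptor genes was -2.31 for EBF1ΔC and -3.38 for EBF1wt, beside 0.10 for EBF1ΔC and 0.13 for EBF1wt over all genes. The comparisons share the Mock arrays, so they are not independent of each other. By probe, 7 of the 10 receptor probes tested were called in each, beside 22.3% of all probes tested for EBF1ΔC and 23.5% for EBF1wt. Because the members were chosen with earlier results of these data known, these counts and medians are a description.

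Cxcr4, the CXCL12 receptor that keeps progenitors in the marrow, was the only member called higher in these comparisons. Its brighter probe read 1.79, 1.70 and 1.47 in EBF1ΔC cells, 1.43, 1.22 and 1.68 in EBF1wt cells, and -0.64, -0.94 and -1.0 in Mock cells. All 6 arrays with supplied EBF1 were above all 3 Mock arrays. The log2 change was 2.52 for EBF1ΔC against Mock (SE 0.15, limma adjusted p = 3.73e-06, 5.72-fold) and 2.30 for EBF1wt against Mock (SE 0.15, limma adjusted p = 5.55e-06, 4.93-fold). The second probe, whose sequence is printed above, read 1.12, 1.13 and 0.75 in EBF1ΔC cells, 1.02, 0.67 and 1.02 in EBF1wt cells, and -1.58, -1.89 and -1.92 in Mock cells. It gave log2 changes of 2.79 for EBF1ΔC and 2.70 for EBF1wt against Mock, so both probes placed Mock lowest. Between EBF1ΔC and EBF1wt the brighter probe differed by 0.21 (95% confidence interval -0.12 to 0.55), and the groups overlapped.

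Gpr183, the receptor for oxysterols that guides activated B cells to the outer follicle, was bright in Mock cells and dim in both EBF1 groups. It read -2.88, -2.81 and -3.61 in EBF1ΔC cells, -2.44, -2.09 and -2.58 in EBF1wt cells, and 4.13, 4.18 and 4.12 in Mock cells. It stayed well above background on all 9 arrays, so the folds are measured on both sides. The log2 change was -7.24 for EBF1ΔC against Mock (SE 0.21, limma adjusted p = 1.01e-07, 151-fold lower) and -6.51 for EBF1wt against Mock (SE 0.21, limma adjusted p = 1.42e-07, 91.4-fold lower). By size the EBF1ΔC change ranked 7 and the EBF1wt change 23 among 11901 genes.

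Ackr2, the decoy receptor for inflammatory CC chemokines, was lowest in EBF1ΔC cells and highest in Mock cells. It read -5.07, -5.12 and -4.64 in EBF1ΔC cells, -4.12, -4.00 and -3.87 in EBF1wt cells, and 2.35, 2.45 and 2.36 in Mock cells. The 3 groups did not overlap anywhere, and the probe was well above background on all arrays. The log2 change was -7.33 for EBF1ΔC against Mock (SE 0.13, limma adjusted p = 1.16e-08, 161-fold lower), which ranked 6 among 11901 genes. For EBF1wt against Mock it was -6.38 (SE 0.13, limma adjusted p = 1.15e-08, 83.6-fold lower), which ranked 26.

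Ccr2, the CCL2 receptor of monocytes, and Ccr6, the CCL20 receptor of mature B cells, were highest in Mock cells. The brighter Ccr2 probe read -5.01, -4.70 and -3.99 in EBF1ΔC cells, -5.38, -6.95 and -5.46 in EBF1wt cells, and -0.24, -0.07 and -0.05 in Mock cells. No EBF1wt array was well above background there, and all EBF1ΔC and Mock arrays were. The change was -4.45 on the log2 scale for EBF1ΔC against Mock (SE 0.42, limma adjusted p = 4.33e-05). For EBF1wt against Mock, Ccr2 was at least 36.4-fold lower (limma adjusted p = 9.72e-06), a bound that puts the unmeasured spots at the lowest signal that was well above background on each array. The second Ccr2 probe was dim everywhere, at -7.36, -4.86 and -7.34 in EBF1ΔC cells, -7.27, -6.22 and -7.22 in EBF1wt cells, and -4.91, -5.11 and -4.52 in Mock cells. It passed the filter only through Mock, its highest group, so its calls (lower in both comparisons) add nothing to those of the brighter probe. EBF1ΔC overlapped Mock through replicate 2, and the bound for EBF1wt was at least 1.37-fold lower.

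Ccr6 read -3.18, -3.28 and -3.14 in EBF1ΔC cells, -2.70, -7.56 and -2.68 in EBF1wt cells, and 1.4, 1.51 and 1.64 in Mock cells. EBF1wt replicate 2 was not well above background, while its group's other two arrays were close to each other. The log2 change was -4.72 for EBF1ΔC against Mock (SE 1.12, limma adjusted p = 0.00597) and -5.83 for EBF1wt against Mock (SE 1.12, limma adjusted p = 0.0019). Without EBF1wt replicate 2 the second value was -4.21, and the call remained.

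How far these dim signals lay below Mock depended on the treatment of background. With normexp background correction and quantile normalization, Ccr2 changed by -2.13 for EBF1ΔC and -2.38 for EBF1wt against Mock, and Ccr6 by -3.46 for EBF1wt. Ackr2 changed by -4.94 for EBF1ΔC and -4.63 for EBF1wt, and Gpr183 by -5.91 for EBF1ΔC and -5.61 for EBF1wt. All these calls held, as they did with the values the authors deposited.

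Ccr7, Ccr9 and S1pr1 were not called against Mock. Ccr7, the receptor for CCL19 and CCL21, read 2.12, 2.20 and 2.21 in EBF1ΔC cells, 2.13, 2.03 and 2.28 in EBF1wt cells, and 2.39, 2.18 and 2.47 in Mock cells. The mm9 position listed for its only probe covers 26 of the probe's 60 bases. The groups overlapped, with log2 differences of -0.17 for EBF1ΔC against Mock (95% confidence interval -0.40 to 0.05) and -0.20 for EBF1wt against Mock (-0.42 to 0.03). With arrays centred on their medians these became 0.38 for EBF1ΔC and 0.51 for EBF1wt. Relative to the median of all genes, Ccr7 lay at -0.28 for EBF1ΔC and -0.32 for EBF1wt. That value is the same under either scaling by arithmetic, as each scaling shifts all genes of an array alike, so it does not check the sign. For EBF1wt the adjusted p passed with quantile normalization (-0.38, limma adjusted p = 0.0118) and with normexp (-0.37, limma adjusted p = 0.00754), both under 2-fold, and the signal was well above background on all 9 arrays. S1pr1, the egress receptor, read -1.27, -1.46 and -1.56 in EBF1ΔC cells, -2.46, -2.53 and -2.63 in EBF1wt cells, and -1.84, -1.39 and -1.56 in Mock cells. All EBF1wt arrays were below all Mock arrays, and the change of -0.94 passed the adjusted p (limma adjusted p = 2.77e-04) but stayed short of 2-fold. Without Mock replicate 1 it was -1.06 and was called, but it was -0.65 with quantile normalization, -0.38 with normexp, -0.35 with the authors' values and -0.24 with median centring (limma adjusted p = 0.276). EBF1ΔC overlapped Mock (log2 change 0.17, limma adjusted p = 0.277).

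Ccr9, the CCL25 receptor, was near the limit of detection. It read -4.56, -4.62 and -5.00 in EBF1ΔC cells, all well above background, then -5.95, -6.96 and -5.52 in EBF1wt cells, none well above background, and -5.57, -5.53 and -5.42 in Mock cells, of which only replicate 1 was. The log2 change was 0.78 for EBF1ΔC against Mock (limma adjusted p = 0.0576), and it was called with quantile normalization (1.34, limma adjusted p = 0.0121) and with median centring (1.33, limma adjusted p = 0.00178). With EBF1wt it was -0.64 (limma adjusted p = 0.104), and its sign turned to 0.07 with quantile normalization. Cxcr5, the CXCL13 receptor of follicular B cells, read -6.10, -5.83 and -6.83 in EBF1ΔC cells, -4.93, -6.40 and -5.84 in EBF1wt cells, and -4.66, -4.90 and -4.59 in Mock cells. Of these 9 spots, 1 was well above background, in Mock replicate 1, so no change is given for Cxcr5.

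Markers of the pro-B stage and of other cells also differed from Mock. The summed signal of 9 mature B-cell markers, as multiples of the array's 75th percentile, was 26.8 to 31.1 in EBF1ΔC cells, 15.9 to 19.9 in EBF1wt cells and 311 to 359 in Mock cells, and 8 of the 9 were called lower in each comparison with Mock. The 14 pro-B and B-lineage markers, Ebf1 among them, summed to 958 to 1002 in EBF1ΔC, 929 to 1031 in EBF1wt and 315 to 327 in Mock cells. Of 13 tested, 6 were called higher in EBF1ΔC and 8 in EBF1wt cells, and 0 lower in either. Of 4 plasma cell markers tested, 1 was called higher and 1 lower in EBF1ΔC cells, and 2 higher and 1 lower in EBF1wt cells. The 12 myeloid markers summed to 11.8 to 18.1 in EBF1ΔC cells, 2.44 to 6.46 in EBF1wt cells and 36.3 to 37.4 in Mock cells. Of these, Csf3r, Mpo, Elane, Adgre1 and Cebpa were well above background on no array. Itgam and Csf1r were so in Mock cells, on some or all arrays, and on no EBF1ΔC or EBF1wt array. Of the 5 myeloid markers tested, 3 were called lower and 2 higher in each comparison with Mock. Ly6c2, with an average of 5.06 in Mock cells, was among the lower (-3.72 in EBF1ΔC, -3.79 in EBF1wt). The others lower were Tyrobp (-5.92 in EBF1ΔC, -4.92 in EBF1wt) and Itgax (at least 33.5-fold in EBF1ΔC, at least 31.5-fold in EBF1wt). Itgax passed the filter only through Mock, its highest group. The higher were Lyz2 (5.16 in EBF1ΔC, 2.06 in EBF1wt) and Cebpb (4.54 in EBF1ΔC, 3.57 in EBF1wt). The 8 erythroid and megakaryocytic markers summed to 2.61 to 6.55 in EBF1ΔC cells, 3.47 to 6.26 in EBF1wt cells and 423 to 484 in Mock cells, with Pf4 and Itga2b well above background on no array. The part of any such other cells in the receptor changes was not tested, and in bulk RNA fewer cells of a type and less RNA per cell cannot be told apart.

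**Figure D2:**
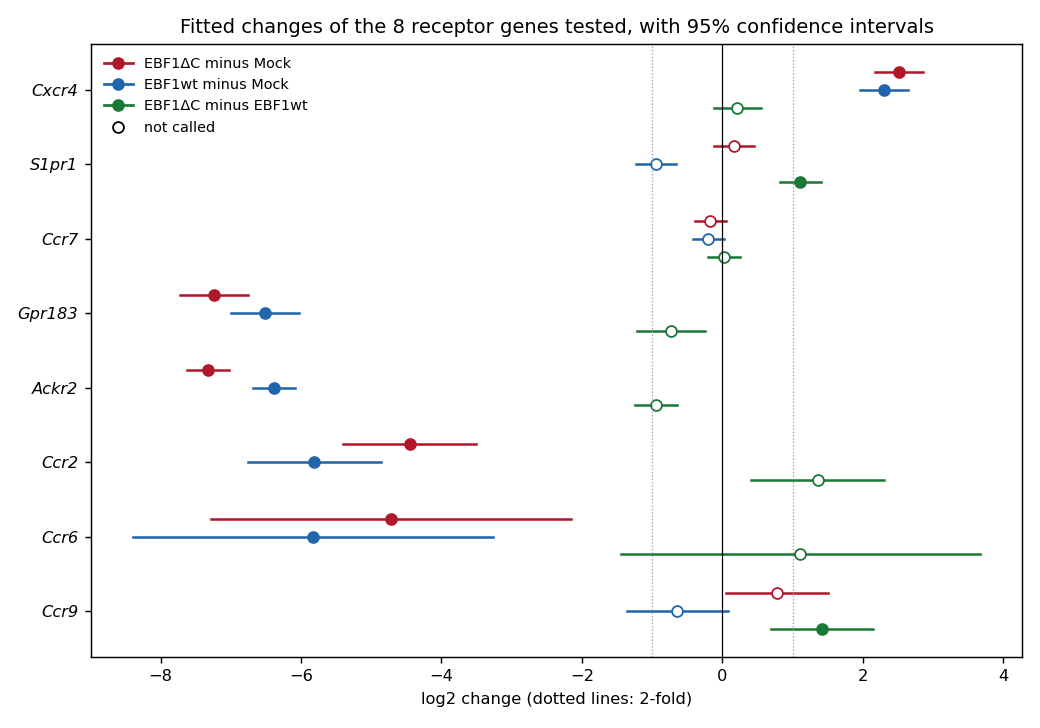
Points are the fitted log2 changes of the 8 receptor genes tested (rows) in the 3 comparisons, bars their 95% confidence intervals, filled points called genes, and dotted lines 2-fold. Gpr183 and Ackr2 have the lowest values with short intervals, Ccr6 has the widest intervals, and only S1pr1 and Ccr9 are called between EBF1ΔC and EBF1wt.

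Between EBF1ΔC and EBF1wt cells, which were treated and sorted alike and scanned on the same day, S1pr1 and Ccr9 were higher in EBF1ΔC cells. These were 2 of the 8 receptor genes tested, where 2.77% of all genes tested were called (1.43% higher, 1.34% lower), and 2 of the 10 receptor probes, where the share was 1.99%. Ccr9 passed the filter only through EBF1ΔC, the group where it was highest, so these counts are a description. The median difference of the 8 was 0.66, beside -0.01 over all genes. S1pr1 was higher by 1.11 on the log2 scale (SE 0.13, limma adjusted p = 0.00161, 2.16-fold), and the lowest EBF1ΔC array (-1.56) was above the highest EBF1wt array (-2.46). Ccr9 was at least 1.49-fold higher (limma adjusted p = 0.029), as the EBF1wt signal was unmeasured on all its arrays. Some markers of other cells were called higher in EBF1ΔC cells too. Of 5 T, NK and innate lymphoid markers tested 3 were called higher in EBF1ΔC cells (Lck, Klrd1 and, though well above background on no array of either group, Nkg7), and the 12 on the array summed to 9.82 to 11.5 in EBF1ΔC cells and 2.81 to 5.61 in EBF1wt cells, with Cd4, Cd8a, Cd3g, Gata3 and Tcf7 well above background on no array of either. Of the 9 mature B-cell markers 4 were called higher, and of the myeloid markers Lyz2 was (3.10), their sums being those given above. At an unadjusted limma p under 0.05, 6 mature B-cell markers were higher and 2 lower, and 2 myeloid markers were higher and 1 lower. Of 4 plasma cell markers tested 0 were called higher and 1 lower, and of 13 pro-B and B-lineage markers tested 2 higher and 1 lower. Of 2 stromal markers tested Sparc was called higher (at least 9.33-fold), and Col1a2 differed by 0.14 (limma adjusted p = 0.812). Sparc passed the filter only through EBF1ΔC, its highest group. The 6 stromal markers on the array summed to 0.278 to 0.389 in EBF1ΔC cells and 0.0669 to 0.0779 in EBF1wt cells, with Col1a1, Col3a1 and Pdgfrb well above background on no array. Whether such other cells were present was not tested, nor was their part in the receptor differences. In bulk RNA, more cells of a type and more RNA per cell cannot be told apart.

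The S1pr1 difference was 0.61 with normexp (limma adjusted p = 0.00124) and 0.56 with the authors' deposited values (limma adjusted p = 0.00425), both below 2-fold. The Ccr9 call was lost with quantile normalization (1.27, limma adjusted p = 0.0685), with normexp (0.20, limma adjusted p = 0.176), and without any of 4 single arrays: Mock replicate 2 or 3, or EBF1ΔC replicate 1 or 2 (limma adjusted p from 0.0519 to 0.0919).

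The other receptor genes were not called between these groups. Ackr2 was lower on every EBF1ΔC array than on any EBF1wt array, with a change of -0.94 (SE 0.13, limma adjusted p = 0.00426) that fell short of 2-fold and passed it without EBF1ΔC replicate 3 (-1.09) or EBF1wt replicate 1 (-1.01). It was -0.31 with normexp (limma adjusted p = 0.0317), -0.27 with the authors' values (limma adjusted p = 0.0545) and -0.92 with slide as a fixed block (limma adjusted p = 0.0946). Gpr183 differed by -0.73 (limma adjusted p = 0.0694), with no overlap of the groups, by -0.47 without EBF1ΔC replicate 3, by -0.30 with normexp and by -0.29 with the authors' values. The brighter Ccr2 probe differed by 1.36 (limma adjusted p = 0.0805), again with no overlap, and was at least 1.67-fold higher in EBF1ΔC cells as a bound. It differed by 0.85 without EBF1wt replicate 2, by 0.25 with normexp and by 0.21 with the authors' values, and the groups overlapped at the second Ccr2 probe (0.39). Ccr6 differed by 1.11 with all arrays (limma adjusted p = 0.588) and by -0.51 without EBF1wt replicate 2 (limma adjusted p = 0.0179), so 1 array set its direction. Ccr7 differed by 0.03 (95% confidence interval -0.20 to 0.25). Groups without overlap were found for 5 of the 8 genes, beside 30.8% of all genes tested.

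Only 2 slides held both groups, each with 1 array per group, and gave differences of EBF1ΔC minus EBF1wt free of the slide. On slide 4 (EBF1ΔC replicate 3, EBF1wt replicate 2) S1pr1 differed by 0.97, and on slide 5 (EBF1ΔC replicate 1, EBF1wt replicate 3) by 1.36. Ccr9 differed by 1.96 and 0.96 on these slides, and Ackr2 by -0.64 and -1.20. Gpr183 differed by -1.52 and -0.30, and Cxcr4 by 0.26 and 0.12. The brighter Ccr2 probe differed by 2.96 and 0.45 and the second by -1.12 and -0.14, the opposite sign. Ccr6 changed sign between the slides, at 4.42 and -0.50, and Ccr7 likewise, at 0.18 and -0.17. The EBF1wt spot was not well above background for Ccr9 and both Ccr2 probes on either slide, nor for Ccr6 on slide 4, so these values rest on unmeasured spots. With slide as a fixed block, which left 2 residual degrees of freedom, neither call remained (S1pr1 1.16, limma adjusted p = 0.0895, and Ccr9 1.46, limma adjusted p = 0.0908).

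**Figure D3:**
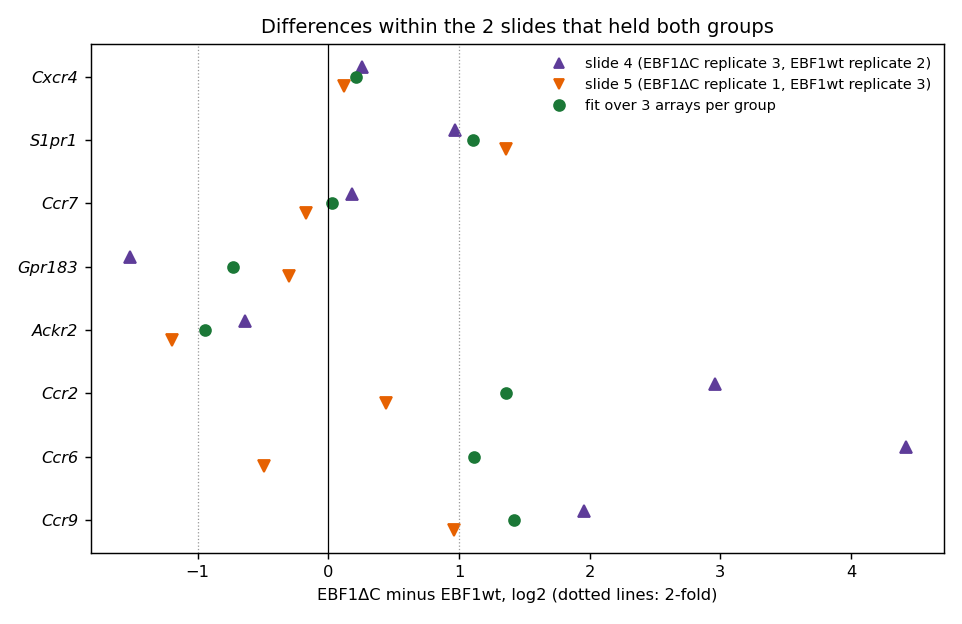
Triangles are the log2 difference of EBF1ΔC minus EBF1wt within slide 4 and within slide 5, 1 array per group on each, and circles are the fit over 3 arrays per group, for the 8 receptor genes tested (rows). S1pr1 lies near 2-fold on both slides (0.97 and 1.36), whereas Ccr6 lies at 4.42 on slide 4, where its EBF1wt spot was not well above background, and at -0.50 on slide 5.

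Several receptors here lie on chromosome 9, with Ccr9 and Ccr2 closer to each other than to Ackr2. In mm9, per the files, the probe of Ackr2 begins at 121820097, of Ccr9 at 123690334 and of the brighter Ccr2 probe at 124022948. Between Ccr9 and Ccr2 lie Cxcr6, Xcr1, Ccr1, Ccr1l1 and Ccr3. Xcr1, a receptor of cross-presenting dendritic cells, differed by -0.56 in EBF1ΔC cells and -0.86 in EBF1wt cells against Mock, under 2-fold. Cxcr6 was called lower in EBF1wt cells, and Ccr1, Ccr1l1 and Ccr3 were not tested. Ackr2 and Ccr2 were called lower in both EBF1 groups, and Ccr9, lying between Ackr2 and Cxcr6, in neither.

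For each receptor tested, the genes with the nearest pattern were taken by Euclidean distance between centred log2 values over the 9 arrays, among 11654 genes. For Gpr183 these were Cd5l (distance 0.70, r = 0.999) and Pcp4 (0.99), and for Ackr2 they were Gpr183 (1.13, r = 0.99) and Cd5l (1.14). Cxcr4 lay nearest to Dnah8 (0.54) and Hivep2 (0.62), Ccr2 to Lhfpl1 (1.12) and Slc37a2 (1.36), and Ccr6 to Ccr2 (2.84) and Rab7b (3.26). S1pr1 lay nearest to Bmf (0.55) and Mtcl1 (0.56), Ccr9 to Nlrc3 (0.70) and Hsd11b1 (0.78), and Ccr7 to Birc2 (0.16) and Tcirg1 (0.17). The distance is smallest for genes that vary little, such as Ccr7, and the 9 arrays fall into 3 groups, so likeness here is mainly likeness of 3 group means.

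Among 18 other chemokine receptors, 5 were tested. In EBF1ΔC cells against Mock, limma called 0 higher and 3 lower (0 and 4 at an unadjusted p under 0.05), and in EBF1wt cells likewise 0 and 3 (0 and 4), where 17.7% of all genes were called for EBF1ΔC and 19.1% for EBF1wt. The median change of the 5 was -1.44 for EBF1ΔC and -1.65 for EBF1wt. Among these were Cmklr1, the chemerin receptor (-1.44 in EBF1ΔC cells, where 1 of 3 arrays was well above background, and at least 2.79-fold lower in EBF1wt cells), then Ccrl2, an atypical receptor that binds chemerin, in EBF1ΔC cells (at least 5.48-fold lower) and Cxcr6, the CXCL16 receptor, in EBF1wt cells (at least 1.25-fold lower). Ccrl2 was also called between EBF1ΔC and EBF1wt, at least 3.35-fold lower in EBF1ΔC cells, the 1 call in this list there. The 3 genes called lower in EBF1wt cells passed the filter only through Mock, their highest group. The counts and medians of this list are therefore a description.

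Of 15 other lipid and nucleotide receptors that position leukocytes, 12 were tested, and 2 were called higher and 7 lower in each comparison with Mock, where 17.7% of all genes were called for EBF1ΔC and 19.1% for EBF1wt. The rises were in the S1P receptors S1pr2, which restrains migration (at least 3.83-fold in EBF1ΔC and at least 2.68-fold in EBF1wt cells), and S1pr4 (log2 change 1.64 in EBF1ΔC, 1.31 in EBF1wt). S1pr2 was not well above background on any Mock array. Among the falls were Ltb4r1, the leukotriene B4 receptor (-3.52 in EBF1ΔC, -5.01 in EBF1wt), and the lysophosphatidylserine receptors Gpr34 (-4.20 in EBF1ΔC cells, and at least 8.45-fold lower in EBF1wt cells), P2ry10 (-2.10 in EBF1ΔC, -2.28 in EBF1wt) and Gpr174 (-1.83 in EBF1ΔC, -2.12 in EBF1wt). Some of the falls, Ltb4r1 and Gpr34 among them, passed the filter only through Mock, their highest group. S1pr2 passed only through the 2 EBF1 groups, where it was higher, so the counts of this list are a description. In EBF1ΔC cells only 1 array was well above background for Ltb4r1 and for Gpr34, so these log2 changes rest mostly on unmeasured spots. Between EBF1ΔC and EBF1wt, Ltb4r1 was the 1 call (1.49 higher in EBF1ΔC cells, limma adjusted p = 0.0246), though only 1 EBF1ΔC array was well above background. In EBF1wt cells the 1 array marked well above background was left out of the fit of Ltb4r1. The EBF1wt values used, -7.03 to -6.90, lay below the lowest well-above-background signal of any EBF1wt array (-5.38 at the lowest). The Ltb4r1 changes that involve EBF1wt cells, against Mock and against EBF1ΔC, therefore rest on unmeasured spots.

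Of 18 ligands and enzymes that make or remove them, 7 were tested. Against Mock, 1 was called in EBF1ΔC cells, where 17.7% of all genes were, and limma called 0 in EBF1wt cells, where 19.1% were, beside 3 higher and 1 lower at an unadjusted p under 0.05. The 1 call was Hsd3b7, an oxysterol-metabolising enzyme that removes GPR183 ligand (-1.09 in EBF1ΔC cells, beside -0.94 in EBF1wt cells, short of 2-fold). Cxcl12, Ccl20 and Ch25h, which supply ligands for CXCR4, CCR6 and GPR183, did not pass the filter.

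All 24 genes of the G proteins and migration machinery list were tested. In EBF1ΔC cells 2 were called higher and 5 lower against Mock, where 17.7% of all genes were called, and in EBF1wt cells 1 higher and 2 lower, where 19.1% of all genes were called, with medians of 0.13 in EBF1ΔC and 0.11 in EBF1wt. Elmo1, which with DOCK proteins activates Rac, was called higher in each (1.11 in EBF1ΔC, 1.09 in EBF1wt), and Dock8, a Cdc42 activator needed for migration in tight spaces, lower in each (-1.09 in EBF1ΔC, -1.35 in EBF1wt). Ptk2, the focal adhesion kinase, was called lower in each (-1.24 in EBF1ΔC, -1.43 in EBF1wt), and its relative Ptk2b in EBF1ΔC cells (-1.35). Gna12 was called higher (1.61) and Plcb2 lower (-1.54) for EBF1ΔC. For EBF1wt, Gna12 changed by 0.81 and Plcb2 by -0.86, under 2-fold. Between EBF1ΔC and EBF1wt 0 of 24 were called by limma, beside 1 higher and 3 lower at an unadjusted p under 0.05. Of these, Gna12 (0.80, limma adjusted p = 0.00251), Plcb2 (-0.68, limma adjusted p = 0.0229) and Plcg2 (-0.66, limma adjusted p = 0.00218) passed the adjusted p but not 2-fold.

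Of 18 genes that desensitise or regulate receptors, 16 were tested. In EBF1ΔC cells 4 were called higher and 1 lower against Mock, where 17.7% of all genes were called, and in EBF1wt cells 3 higher and 1 lower, where 19.1% of all genes were called. Arrb1, a beta-arrestin (1.18 in EBF1ΔC, 1.13 in EBF1wt), Rgs2, an inhibitor of G-protein signalling (1.26 in EBF1ΔC, 1.51 in EBF1wt), and Foxo1, a transcription factor that promotes S1pr1 and Ccr7 in T cells (1.42 in EBF1ΔC, 1.37 in EBF1wt), were called higher in each. Rgs1, a G-protein inhibitor that dampens CXCR4 signalling in B cells, was called lower in each (-1.71 in EBF1ΔC, -1.84 in EBF1wt). Rgs10 was called higher in EBF1ΔC cells against Mock (2.45) and against EBF1wt (2.69, limma adjusted p = 0.0155), and its change in EBF1wt cells was -0.24 (limma adjusted p = 0.695).

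**Figure D4:**
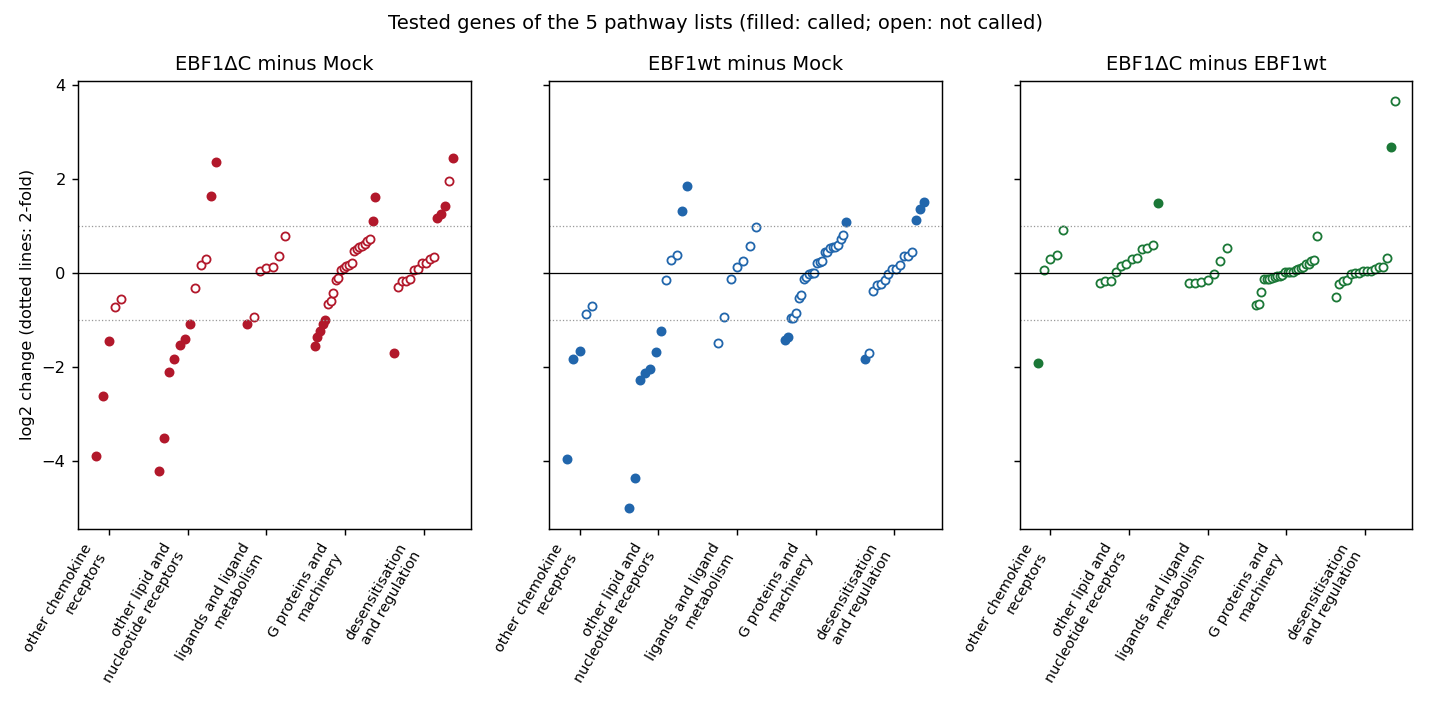
Each point is a tested gene of 1 of the 5 pathway lists (horizontal axis), placed by its log2 change in each comparison (vertical axis), filled if called, with dotted lines at 2-fold. Most receptor genes lie below 0 against Mock (for other chemokine receptors, medians of -1.44 in EBF1ΔC and -1.65 in EBF1wt), the machinery list centres near 0 (medians of 0.13 in EBF1ΔC and 0.11 in EBF1wt), and few genes are filled between EBF1ΔC and EBF1wt. Some of these receptor genes, such as Cmklr1, Cxcr6, Ltb4r1 and Gpr34, passed the filter only through Mock, their highest group.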

How the data were processed

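Cy3-labelled cRNA from 9 samples was hybridised to 9 1-colour Agilent mouse arrays (45018 spots, 43379 of them not controls). Per the file headers, the deposited intensity is a background-subtracted, detrended signal from Agilent Feature Extraction 10.5.1.1, not normalized between arrays, and per the submitters' processing notes the version was 9.1. The authors also deposited log2 values of unstated normalization, whose columns correlated at r = 0.999 or more with quantile-normalized log2(mean signal + 50) and whose medians ran from 6.735 to 6.742.

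Groups came from sample titles. The source name of EBF1wt replicate 3 omits tamoxifen, which its description mentions. From the log2 intensity, the array's own 75th percentile was subtracted. Flagged outlier spots were left out (73 to 163 per array), no spot was saturated, and spots of a probe were averaged. Probes marked well above background on every array of some group were kept (22357), and the brightest probe stood for a gene. limma 3.58.1 (R 4.3.3) fitted a mean per group to all 9 arrays (6 residual degrees of freedom, two-sided tests, Benjamini-Hochberg adjustment). The script was tested on simulated data. The main fit did not treat same-numbered samples as pairs. Their deviations correlated between -0.18 and 0.12, which does not settle how the replicates were made.

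Named were all members, Ebf1, up to 4 called genes per pathway list and comparison, and the 2 nearest genes per member. Some genes of these lists are not reported here. The members and gene lists were chosen with earlier results of these data known. Genes were named by RefSeq accession, symbol or synonym. Alternatives covered background correction, normalization, filters, slide and replicate blocks, weights, moderation, thresholds and arrays left out.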

Additional observations from a re-analysis of the deposited data

How the results depend on the processing

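Over the 24 receptor gene changes and their alternatives, 513 of 551 recomputed values kept their direction and their side of the threshold, 16 lost a call, 12 gained one and 10 turned sign, and the falls of Gpr183, Ackr2, Ccr2 and Ccr6 and the rise of Cxcr4 against Mock kept their calls wherever they were tested. Sign turned for Ccr9 in EBF1wt against Mock with normexp (0.022), quantile normalization (0.066), median centring (0.066) and the authors' values (0.0076). It turned for Ccr7 with median centring (0.51 for EBF1wt and 0.38 for EBF1ΔC against Mock, -0.13 between them), which moved the median of all genes to 0.83, 0.65 and -0.16, and for EBF1ΔC against EBF1wt with array weights (-0.018). Without EBF1wt replicate 2, Ccr6 and Ccr7 turned between EBF1ΔC and EBF1wt, where leaving out 1 array gave -0.51 to 1.93 and -0.032 to 0.093. S1pr1 in that comparison fell under 2-fold with median centring (0.95), and its range with 1 array left out was 1.03 to 1.18. Ccr9 there was also lost with no filter or a filter of at least 1 array (limma adjusted p = 0.0872 and 0.0582), and Ackr2 was called with quantile normalization (-1.05), median centring (-1.10) and array weights (-1.02), and Ccr2 with median centring (1.20) and trended, robust moderation (limma adjusted p = 0.0491).

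Genes called numbered 2109 for EBF1ΔC against Mock, 2268 for EBF1wt against Mock and 330 for EBF1ΔC against EBF1wt. In that order they were 1028, 1022 and 129 with normexp, 1005, 1003 and 125 with the authors' values, 1388, 1464 and 218 with probes well above background on all 9 arrays, and 7635, 7917 and 1095 on the adjusted p alone. Median centring gave 3869 (3056 higher, 813 lower) and 5324 (4572 higher, 752 lower) against Mock, beside 743 higher and 1366 lower, and 789 higher and 1479 lower. Between EBF1ΔC and EBF1wt a fixed slide block gave 150 and a fit of these groups alone 208. With 1 array left out the counts were 1962 to 2167, 2091 to 2300 and 252 to 362.

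Receptor genes called against Mock were 3 (4 probes) in each comparison with probes above background on all 9 arrays, because Ccr2 and Ccr6 then drop out, and 5 to 6 genes (6 to 8 probes) with 1 array left out. Between EBF1ΔC and EBF1wt they were 0 genes and 0 probes with normexp, the authors' values and the fixed slide block, where limma gave 5 genes and 5 probes at an unadjusted p under 0.05 with no fold limit. They were 1 gene and 1 probe with the filters of at least 1 array, of all 9 arrays and of none, in the fit of these groups alone, and with the replicate block, where the Ccr9 adjusted p was 0.0568. The replicate block changed no other call of a receptor gene. With 1 array left out they were 1 to 3 genes and 1 to 2 probes, and the cause was not tested. Scan time coincided with slide, so it was not run apart from it, and a scan-day block could not be fitted for comparisons with Mock. With 3 arrays a group, signals near background (Ccr9, Cxcr5, the second Ccr2 probe, Ccr6 in EBF1wt) limit what can be said.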
